A study of Mus musculus with 24 samples.

Results

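The 9 genes described here make up the core of the TGFb system: the ligand genes Tgfb1, Tgfb2 and Tgfb3, the receptor genes Tgfbr1, Tgfbr2 and Tgfbr3, and the latent TGFb binding protein genes Ltbp1, Ltbp2 and Ltbp3. They were chosen by name, with earlier results of these data known, and are 9 of the 16604 genes of the expression table. All 9 were found by their Ensembl identifier and all 9 passed the filter on low values. They were measured by RNA-seq in EMS404 cells, a line of hepatic stellate cells from C57Bl6 mouse liver that was immortalised with SV40 and expresses human TLR4. Every group, the controls included, is this same modified line, and no other line was studied. The 24 libraries form 8 groups of 3, which the design text calls biological triplicates. Where separate cultures are not named, p-values measure only the spread between these samples. The groups were vehicle, TGFb, SB431542 (which inhibits the TGFb receptor), SR9011 (an agonist of REVERBalpha), CLK8 (which keeps CLOCK and BMAL1 from forming a dimer), and TGFb together with each of these 3 compounds. The vehicle group is labelled untreated, but its library names, like those of the TGFb group, give DMSO. Compound was present for 24 h, and in the groups with TGFb a further 24 h with compound and 10 ng/mL TGFb followed. The labels state no dose for the compounds. They also leave out whether cells that received no TGFb stayed in culture, with or without compound, for the last 24 h. An effect of TGFb and one of time in culture therefore cannot be told apart. Within a compound, the same holds for a longer exposure to that compound.

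The TGFb ligands are secreted in a latent form. Each is held by its own propeptide, and that small complex is bound in turn by a latent TGFb binding protein, which ties it to fibrillin and fibronectin in the matrix until integrins, proteases or thrombospondin release the active ligand. Active TGFb binds the type II receptor TGFBR2, which recruits and phosphorylates the type I receptor kinase TGFBR1, the target of SB431542, and the kinase then activates SMAD2 and SMAD3. TGFBR3, also called betaglycan, is a co-receptor without kinase activity that presents ligand, TGFb2 above all, to the signalling pair. LTBP2 is a matrix protein of the same family that is not known to bind the latent ligand. In fibrotic liver, stellate cells are both a source and a target of TGFb.

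Levels are FPKM, fragments per kilobase of gene scaled to all mapped fragments, so levels of different genes are compared per length. A gene was called where limma, fitted to log2(FPKM + 1) with all 8 groups, gave a Benjamini-Hochberg adjusted p under 0.05 over 11297 genes. Fold values are ratios of group means, and log2 values and their standard errors (SE) are on the log2(FPKM + 1) scale, which understates changes of low genes. Read totals are unknown. Library sums were 503920 to 610024 FPKM, 10780 to 11000 genes per library reached 1 FPKM, and the value steps of 47 low genes gave relative depths of 0.92 to 1.01. The SR9011 libraries scattered more than the rest: their mean squared deviation from the group mean was 0.00925 to 0.0192, against 0.00346 to 0.00891 in the other 21 libraries. Of 12 stellate or myofibroblast markers, 9 passed the filter, Des and Rgs5 stayed under 1 FPKM in all libraries, and Lrat was not in the table. The summed level ran from 957 to 5294 FPKM and differed between groups. The collagen genes Col1a1 (342 to 2617 FPKM) and Col1a2 (406 to 2065 FPKM) were its largest contributors. Transcription factor genes of the list, Hand2 (23.4 to 97.6 FPKM) and Lhx2 (8.3 to 13 FPKM), added far less, so the sum mainly follows collagen. This sum was 3292 to 3473 in vehicle, 2595 to 2704 with SB431542, 957 to 1151 with SR9011 and 2405 to 2481 with CLK8. The sums were 4684 to 5294 with TGFb, 3015 to 3222 with SB431542+TGFb, 2149 to 2307 with SR9011+TGFb and 4051 to 4692 with CLK8+TGFb. Hepatocyte and endothelial markers summed to at most 0.22 and 0.74 FPKM, and macrophage or leukocyte markers to 1.14 to 3.34 FPKM, of which Cd68 gave up to 2.9 and the pan-leukocyte marker Ptprc at most 0.02. A list of 5 mesothelial markers (Msln, Upk3b, Upk1b, Wt1, Krt8) was well expressed and differed between groups, as given beside the ligands. In such bulk samples fewer cells of a kind and less RNA per cell cannot be told apart.

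**Figure D1:**
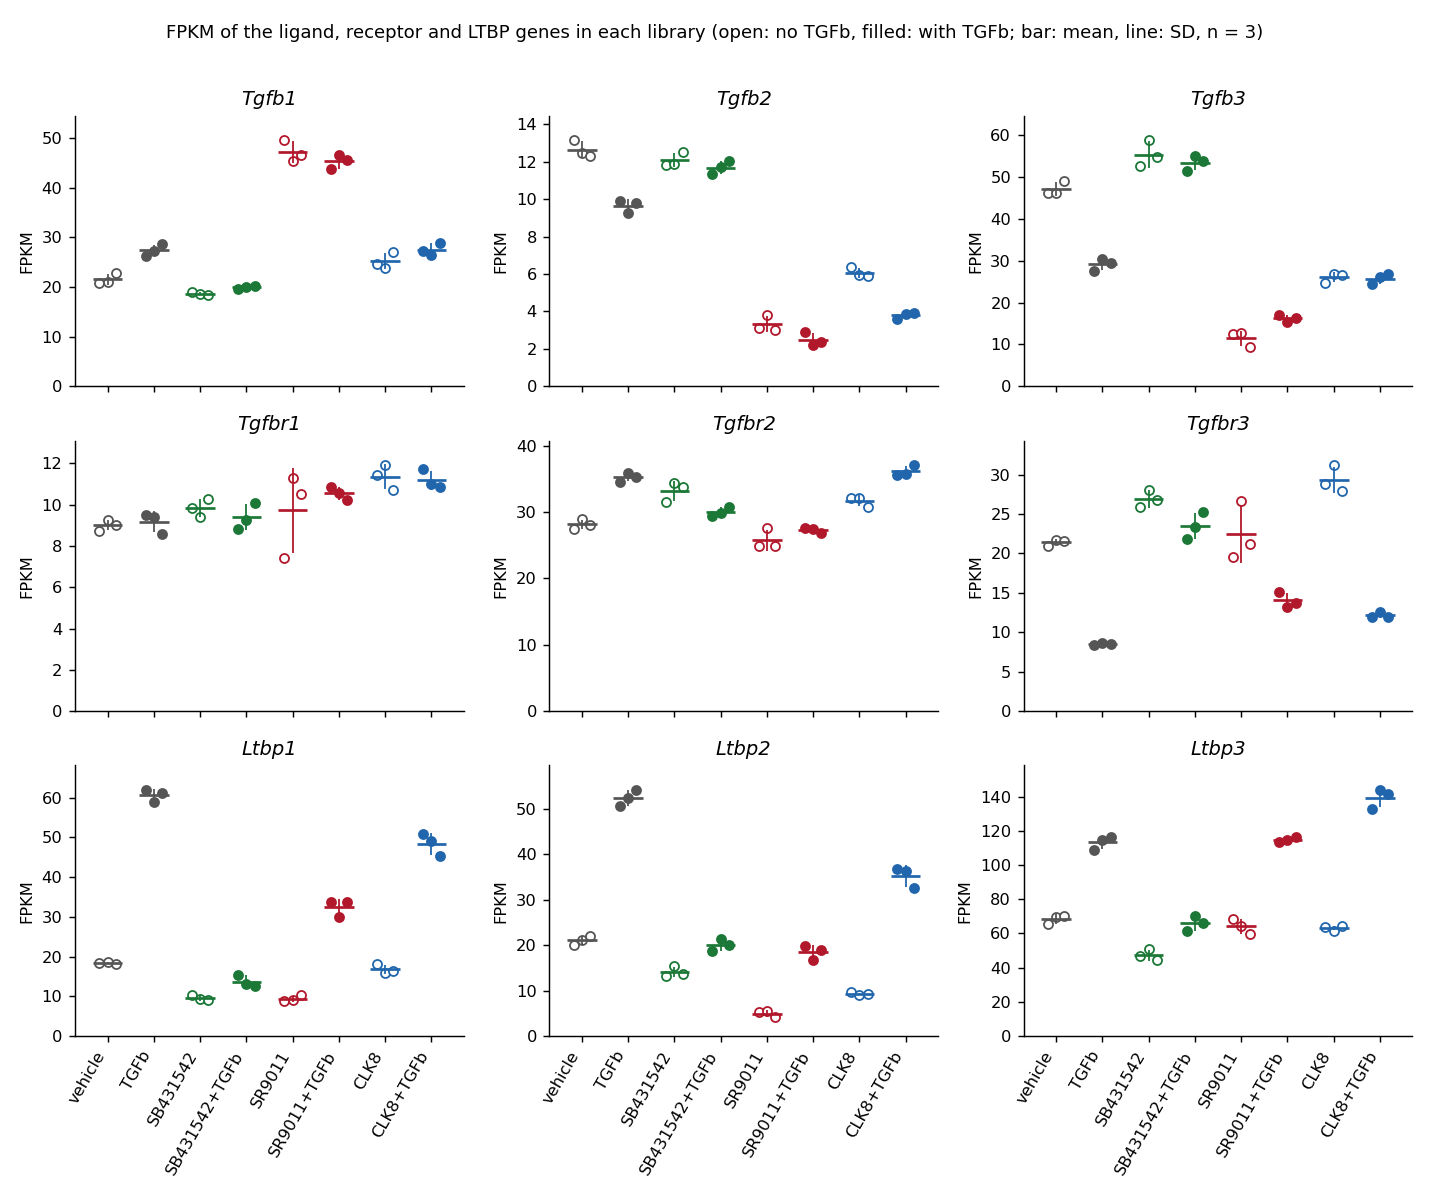
Level in FPKM (y axis, from 0) of each of the 9 genes in the 24 libraries by group (x axis). Open points are libraries without TGFb and filled points libraries with TGFb, horizontal bars are group means and vertical lines the SD (n = 3). Tgfb1 stands highest in the 2 SR9011 groups, Tgfbr3 is lowest with TGFb, and the 3 Ltbp genes are higher with TGFb than without it in every setting.

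The promoters of the 2 ligand genes with entries in the RefSeq promoter table (GRCm38.p6) are printed because the ligands moved in opposite directions. In all, 7 of the 9 genes matched the table, all but Tgfb3 and Tgfbr3. The window is the 250 bases before the start of transcription, 5′ to 3′ on the strand of the gene. Capitals mark every match, on either strand, to CAGAC (a SMAD binding element), its palindromic form GTCTAGAC, CACGTG (the E-box bound by CLOCK and BMAL1), TAGGTCA (the core of the element bound by ROR and REV-ERB proteins) and TGACTCA (an AP-1 site). The windows are chr7:25686752-25687001 on the plus strand for Tgfb1 and chr1:186705990-186706239 on the minus strand for Tgfb2.
Tgfb1: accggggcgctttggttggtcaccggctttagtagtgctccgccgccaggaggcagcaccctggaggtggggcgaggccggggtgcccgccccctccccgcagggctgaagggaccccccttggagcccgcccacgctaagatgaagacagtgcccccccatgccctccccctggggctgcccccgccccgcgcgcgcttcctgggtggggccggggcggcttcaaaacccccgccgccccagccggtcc
Tgfb2: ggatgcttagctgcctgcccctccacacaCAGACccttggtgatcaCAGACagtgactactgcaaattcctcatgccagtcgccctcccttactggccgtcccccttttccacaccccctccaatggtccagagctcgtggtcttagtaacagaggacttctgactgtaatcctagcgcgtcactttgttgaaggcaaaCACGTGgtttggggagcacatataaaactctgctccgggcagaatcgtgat

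The Tgfb1 window holds none of these 5 motifs. It is 75.2% G and C and holds 5 matches to GGGCGG, an SP-factor box that is not capitalised, at least 1 of which is found in 32.7% of 32851 promoter windows of the same length. The Tgfb2 window is 53.6% G and C, with 2 matches to CAGAC at bases -221 to -217 and -204 to -200 from the start, and 1 match to CACGTG at bases -51 to -46. Across the 32851 windows, 42.2% held at least 1 CAGAC on either strand, 6.02% CACGTG, 2.23% TAGGTCA, 4.46% TGACTCA and 0.167% GTCTAGAC. No match overlapped another. A match is a stretch of letters and not a measured binding site, and binding was not measured here.

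Tgfb1 (ENSMUSG00000002603, chr7:25687002-25705077, plus strand, protein coding) encodes the isoform best known from fibrosis. It read 20.7, 21.1 and 22.7 FPKM in the vehicle libraries and 26.3, 27.3 and 28.6 FPKM with TGFb. SB431542 libraries held 18.9, 18.6 and 18.3 FPKM, and 19.6, 19.9 and 20.3 FPKM with TGFb added. These 6 were the lowest of the series and lay below all vehicle libraries. SR9011 libraries held 49.6, 45.4 and 46.6 FPKM, and 43.7, 46.6 and 45.6 FPKM with TGFb. CLK8 libraries held 24.7, 23.8 and 27.1 FPKM, and 27.3, 26.4 and 28.9 FPKM with TGFb. The 6 libraries with SR9011 stood above all other 18, and those with CLK8 lay within or next to the range of TGFb. Against vehicle, Tgfb1 was 2.19-fold higher with SR9011 (log2 1.1, SE 0.0501, limma adjusted p = 7.24e-15), 1.27-fold higher with TGFb (log2 0.34, limma adjusted p = 5.83e-06) and 1.17-fold higher with CLK8 (log2 0.22, limma adjusted p = 0.00117). It fell by 0.20 on the log2 scale with SB431542 (limma adjusted p = 0.00758), a call that was lost without vehicle replicate 3 (log2 -0.16, limma adjusted p = 0.0607).

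Tgfb2 (ENSMUSG00000039239, chr1:186622792-186705989, minus strand, protein coding) encodes the isoform that depends most on betaglycan for receptor binding. Its values were 13.2, 12.5 and 12.3 FPKM in vehicle and 9.89, 9.25 and 9.80 FPKM with TGFb. SB431542 libraries held 11.8, 11.9 and 12.5 FPKM, and 11.3, 11.7 and 12.02 FPKM with TGFb. The ranges of vehicle and SB431542 overlapped, while TGFb lay below both. SR9011 libraries held 3.10, 3.79 and 3.01 FPKM, and 2.89, 2.22 and 2.37 FPKM with TGFb. CLK8 libraries were at 6.38, 5.92 and 5.87 FPKM, and 3.59, 3.88 and 3.92 FPKM with TGFb. All 12 libraries with SR9011 or CLK8 thus lay below the other 12. SR9011+TGFb was the lowest group, and the ranges of SR9011 and CLK8+TGFb overlapped. The vehicle mean was 3.83 times the SR9011 mean (log2 -1.67, SE 0.0675, limma adjusted p = 9.51e-16) and 2.09 times the CLK8 mean (log2 -0.95, limma adjusted p = 1.28e-10). The fall with TGFb was smaller (log2 -0.36, limma adjusted p = 0.000107), and SB431542 against vehicle gave -0.06 (limma adjusted p = 0.603).

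Tgfb3 (ENSMUSG00000021253, chr12:86056745-86079041, minus strand, protein coding) was the most abundant ligand gene of the vehicle cells. It overlaps Ttll5 on the other strand, with which it shares 0 exonic bases. Its vehicle libraries held 46.1, 46.2 and 49.2 FPKM, and those with TGFb 27.7, 30.5 and 29.5 FPKM. SB431542 libraries held 52.6, 58.9 and 54.9 FPKM, and 51.5, 55.2 and 53.8 FPKM with TGFb. Both SB431542 groups stood above vehicle, and TGFb stood well below it. The SR9011 libraries were at 12.4, 12.6 and 9.39 FPKM, and at 17.0, 15.3 and 16.4 FPKM with TGFb. CLK8 gave 24.7, 26.9 and 26.5 FPKM alone and 24.4, 26.0 and 26.8 FPKM with TGFb. SR9011 without TGFb was the lowest group, its 3 libraries all below those with SR9011+TGFb. The vehicle mean was 4.11 times that of SR9011 (log2 -1.96, SE 0.0743, limma adjusted p = 3.52e-16), 1.81 times that of CLK8 (log2 -0.83, limma adjusted p = 4.82e-09) and 1.61 times that of TGFb (log2 -0.67, limma adjusted p = 7.02e-08). The difference of 0.23 between SB431542 and vehicle passed narrowly (limma adjusted p = 0.0368). It was lost with no filter on low values (limma adjusted p = 0.064), after quantile normalization (0.0894), and without vehicle replicate 1 (0.115), vehicle replicate 2 (0.105), SB431542 replicate 2 (0.153) or SB431542 replicate 3 (0.0801).

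Like Tgfb2 and Tgfb3, the mesothelial marker sum was lower with TGFb, SR9011 or CLK8 than in vehicle. The lowest groups differed: CLK8+TGFb for the sum, SR9011+TGFb for Tgfb2 and SR9011 for Tgfb3. The sum was 343 to 359 FPKM in vehicle, 168 to 179.8 with TGFb, 438 to 448 with SB431542 and 368 to 424 with SB431542+TGFb. In the SR9011 and SR9011+TGFb libraries it was 89.5 to 132 and 98.5 to 122 FPKM, and in those with CLK8 and CLK8+TGFb 107 to 126 and 74.0 to 87.2 FPKM. All 5 markers passed the filter, with Upk3b (19.9 to 345 FPKM) the largest and Krt8 (0 to 1.83 FPKM) the smallest contributor. Cholangiocyte markers (Krt19, Krt7, Sox9 and Epcam, the last under 1 FPKM in all libraries) were low and also differed, with sums of 7.2 to 11.4 FPKM over the vehicle, TGFb and SB431542 groups, with or without TGFb, and 2.51 to 5.39 FPKM over those with SR9011 or CLK8. The part of either list in the ligand levels was not tested.

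With Tgfb1 and Tgfb3 going opposite ways, the make-up of the ligand class changed while its sum changed less. The summed FPKM of the 3 ligand genes was 81.3 ± 2.52 in vehicle (SD, n = 3), 66.3 ± 2.13 with TGFb, 86.2 ± 3.05 with SB431542, 62.0 ± 3.07 with SR9011 and 57.3 ± 1.95 with CLK8. Tgfb3 made up 58.0% ± 0.386 of that sum in vehicle and 18.5% ± 2.32 with SR9011, while Tgfb1 went from 26.5% ± 0.555 to 76.2% ± 2.78. With TGFb alone Tgfb1 held 41.3% ± 0.71 and Tgfb3 44.1% ± 1.20. CLK8 brought the pair to 44.0% ± 1.74 and 45.4% ± 1.76. Tgfb2 was the smallest share everywhere, from 15.6% ± 0.933 in vehicle down to 3.90% ± 0.574 with SR9011+TGFb. Across the 8 group means of log2(FPKM + 1), Tgfb1 correlated with Tgfb3 at r = -0.97 and with Tgfb2 at r = -0.89, and Tgfb2 with Tgfb3 at r = 0.91. These describe 8 points that share the same libraries and treatments.

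**Figure D2:**
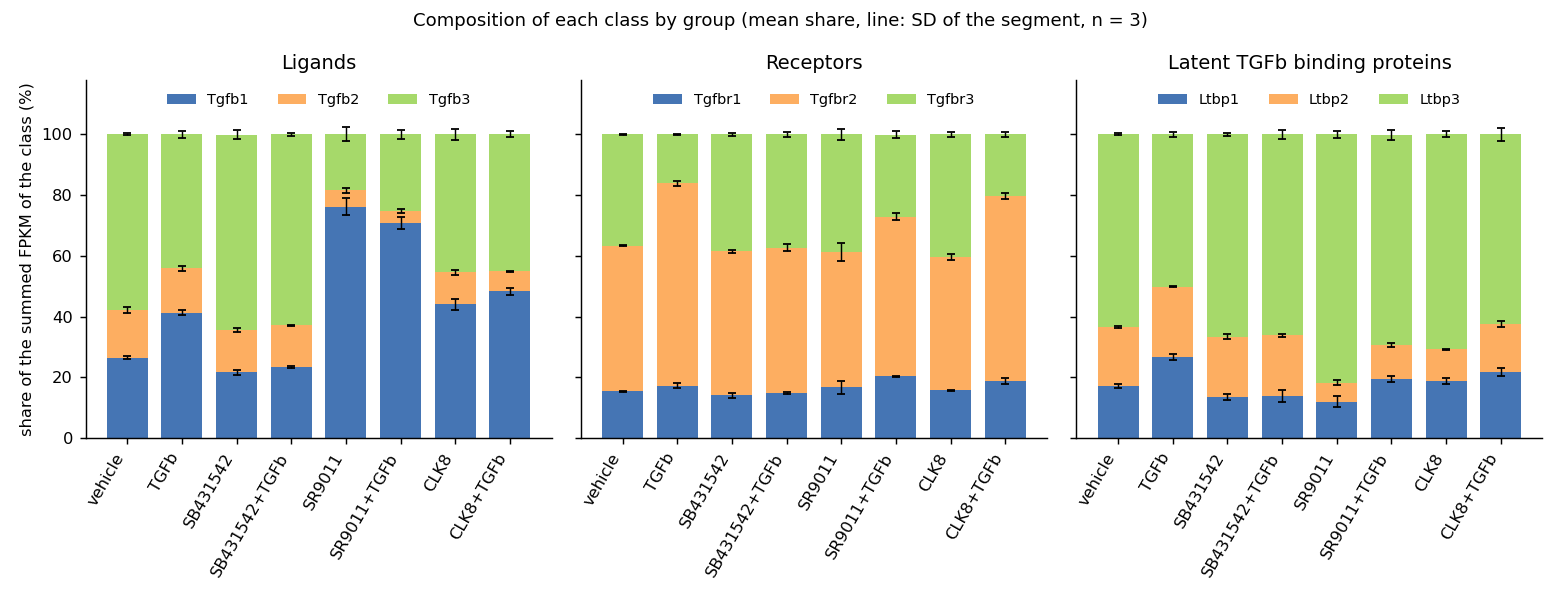
Share of the summed FPKM of each class (y axis, percent) held by its 3 genes in the 8 groups (x axis). Segments are mean shares and black lines the SD of the segment (n = 3). Tgfb1 fills 76.2% of the ligand sum with SR9011 against 26.5% in vehicle, and Tgfbr3 shrinks from 36.6% of the receptor sum in vehicle to 16.1% with TGFb.

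Tgfbr1 (ENSMUSG00000007613, chr4:47353222-47414931, plus strand, protein coding), the gene of the type I kinase that SB431542 blocks, had the narrowest span of group means of the 9. Its highest group mean was 1.26 times its lowest, but its SR9011 libraries scattered widely. Vehicle libraries held 8.74, 9.23 and 9.01 FPKM, and those with TGFb 9.51, 9.39 and 8.58 FPKM. SB431542 libraries held 9.84, 9.40 and 10.3 FPKM, and 8.83, 9.27 and 10.1 FPKM with TGFb. Vehicle and TGFb overlapped, and no call was made for TGFb (log2 0.02, SE 0.0887, limma adjusted p = 0.847) or SB431542 (log2 0.12, limma adjusted p = 0.414). SR9011 libraries read 7.39, 11.3 and 10.5 FPKM, and 10.8, 10.6 and 10.2 FPKM with TGFb. CLK8 libraries read 11.5, 11.9 and 10.7 FPKM, and 11.7, 10.98 and 10.8 FPKM with TGFb. The CLK8 libraries all lay above vehicle, and SR9011 replicate 1 was the lowest library of the series. CLK8 against vehicle was called (log2 0.30, limma adjusted p = 0.00771). SR9011 against vehicle was not (log2 0.08, limma adjusted p = 0.419), but without SR9011 replicate 1 it was (log2 0.25, limma adjusted p = 0.000727).

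Tgfbr2 (ENSMUSG00000032440, chr9:116084293-116175360, minus strand, protein coding), the gene of the ligand-binding type II kinase, was the most abundant receptor gene in each group mean. It read 27.5, 28.9 and 28.0 FPKM in vehicle and 34.6, 35.9 and 35.3 FPKM with TGFb. SB431542 libraries held 31.5, 34.4 and 33.7 FPKM, and 29.4, 29.9 and 30.8 FPKM with TGFb. TGFb and SB431542 alone thus each stood above vehicle, with SB431542+TGFb between. SR9011 libraries held 24.8, 27.6 and 24.8 FPKM, and 27.6, 27.5 and 26.8 FPKM with TGFb. CLK8 libraries held 32.2, 32.2 and 30.8 FPKM, and 35.6, 35.7 and 37.1 FPKM with TGFb. The SR9011 range overlapped that of vehicle and the CLK8 range did not. Tgfbr2 was 1.25-fold higher with TGFb (log2 0.32, SE 0.0429, limma adjusted p = 1.53e-06), 1.18-fold higher with SB431542 (log2 0.23, limma adjusted p = 0.000456) and 1.13-fold higher with CLK8 (log2 0.17, limma adjusted p = 0.00291). The fall with SR9011 was small (log2 -0.12, limma adjusted p = 0.0132). It was lost with only the compared groups in the fit (limma adjusted p = 0.1) and without vehicle replicate 2 (0.0615), SR9011 replicate 1 (0.0535) or SR9011 replicate 3 (0.068).

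Tgfbr3 (ENSMUSG00000029287, chr5:107106570-107289629, minus strand, protein coding), the betaglycan gene, was the receptor that moved most. Vehicle libraries held 21.0, 21.7 and 21.6 FPKM, and those with TGFb 8.34, 8.68 and 8.47 FPKM. SB431542 libraries held 25.9, 28.1 and 26.8 FPKM, and 21.9, 23.4 and 25.2 FPKM with TGFb. The TGFb libraries were the lowest 3 of the series, and all 3 with SB431542 exceeded vehicle. SR9011 libraries held 19.6, 26.6 and 21.2 FPKM, and 15.1, 13.2 and 13.8 FPKM with TGFb. CLK8 libraries held 28.8, 31.2 and 28.0 FPKM, and 11.9, 12.6 and 11.9 FPKM with TGFb. In both of these settings the libraries with TGFb lay below those without. The vehicle mean was 2.52 times the TGFb mean (log2 -1.24, SE 0.0754, limma adjusted p = 2.61e-12). Tgfbr3 was 1.37-fold higher than vehicle with CLK8 (log2 0.43, limma adjusted p = 6.48e-05) and 1.26-fold higher with SB431542 (log2 0.32, limma adjusted p = 0.00467). SR9011 against vehicle was not called (log2 0.05, limma adjusted p = 0.546). As a share of the receptor sum, Tgfbr3 went from 36.6% ± 0.284 in vehicle to 16.1% ± 0.143 with TGFb (SD, n = 3), while Tgfbr2 went from 48.0% ± 0.253 to 66.6% ± 0.742. With SB431542+TGFb the shares were 37.3% ± 0.893 and 47.8% ± 1.15.

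Windows upstream of the Ltbp genes are shown because these 3 genes rose with TGFb in every setting tested. The rules for the window and the capitals are those used for the ligands. The windows are chr17:75005279-75005528 and chr17:75178531-75178780 on the plus strand for the 2 starts of Ltbp1, chr12:84876533-84876741 on the minus strand for Ltbp2 and chr19:5740650-5740899 on the plus strand for Ltbp3. For both Ltbp1 starts the bases checked after the start were not found in a GENCODE M21 transcript. At the first start no match was possible. The bases checked there lie almost wholly before base 75005568, where GENCODE M21 begins the gene. Both starts are given as RefSeq places them. For Ltbp2 the 41 bases next to the start are left off because GENCODE M21 places them in the first exon.
Ltbp1 start 1: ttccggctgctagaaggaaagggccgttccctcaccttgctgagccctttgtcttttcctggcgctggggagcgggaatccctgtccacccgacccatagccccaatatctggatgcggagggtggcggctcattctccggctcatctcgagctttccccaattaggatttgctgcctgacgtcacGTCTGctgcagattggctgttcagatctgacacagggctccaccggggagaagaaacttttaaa
Ltbp1 start 2: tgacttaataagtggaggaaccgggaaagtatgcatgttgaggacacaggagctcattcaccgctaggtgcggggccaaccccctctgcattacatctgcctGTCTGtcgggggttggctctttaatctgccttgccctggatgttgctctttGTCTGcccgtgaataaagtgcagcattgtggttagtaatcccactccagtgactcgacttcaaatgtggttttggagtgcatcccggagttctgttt
Ltbp2: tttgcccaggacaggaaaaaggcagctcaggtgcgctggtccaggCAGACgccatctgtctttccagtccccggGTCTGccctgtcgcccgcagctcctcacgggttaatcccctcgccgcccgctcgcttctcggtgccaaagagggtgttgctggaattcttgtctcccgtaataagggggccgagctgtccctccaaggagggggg
Ltbp3: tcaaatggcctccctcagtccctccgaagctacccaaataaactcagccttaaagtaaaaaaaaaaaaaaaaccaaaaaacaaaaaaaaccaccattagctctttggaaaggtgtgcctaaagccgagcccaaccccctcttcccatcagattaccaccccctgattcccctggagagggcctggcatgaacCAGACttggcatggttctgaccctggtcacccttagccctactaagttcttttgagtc

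Each of the 4 windows holds CAGAC or its complement GTCTG and none of the other 4 capitalised motifs. There is 1 match at the first Ltbp1 start (bases -64 to -60) and 1 at Ltbp3 (-58 to -54). The other Ltbp1 start has 2 (-148 to -144 and -97 to -93), as does Ltbp2 (-205 to -201 and -176 to -172). Of all windows 42.2% hold such a match, and so does that of Tgfb2, which was lower with TGFb.

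Ltbp1 (ENSMUSG00000001870, chr17:75005568-75392512, plus strand, protein coding), whose protein anchors latent TGFb to the matrix, read 18.4, 18.7 and 18.2 FPKM in vehicle and 61.9, 59.0 and 61.1 FPKM with TGFb. SB431542 libraries held 10.3, 9.44 and 8.97 FPKM, and 15.5, 13.1 and 12.5 FPKM with TGFb. The TGFb libraries were the highest of the series, and all 6 with SB431542 stayed below vehicle. SR9011 libraries held 8.74, 8.97 and 10.3 FPKM, and 33.7, 29.9 and 33.6 FPKM with TGFb. CLK8 libraries held 18.2, 15.9 and 16.3 FPKM, and 50.8, 49.1 and 45.2 FPKM with TGFb. In each compound the 3 libraries with TGFb lay above the 3 without. Ltbp1 was 3.30-fold higher with TGFb than with vehicle (log2 1.67, SE 0.0716, limma adjusted p = 4.91e-15). The vehicle mean was 1.92 times that with SB431542 (log2 -0.88, limma adjusted p = 9.65e-09) and 1.97 times that with SR9011 (log2 -0.91, limma adjusted p = 1.12e-10). CLK8 against vehicle was not called (log2 -0.13, limma adjusted p = 0.15), but was after quantile normalization (log2 -0.21, limma adjusted p = 0.018).

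Ltbp2 (ENSMUSG00000002020, chr12:84783212-84876532, minus strand, protein coding) had the widest span of the 9 genes, its highest group mean being 10.6 times its lowest. It lies 1.18 megabases from Tgfb3 on chromosome 12. An annotated gene, D030025P21Rik, overlaps its span and is not a row of the table. Whether the libraries keep strand is not stated, so reads from that gene could be counted here. Annotated genes outside the table also overlap the spans of Tgfb2, Tgfb3, Tgfbr3 and Ltbp1. Vehicle libraries held 19.9, 21.2 and 22.0 FPKM, and those with TGFb 50.5, 52.3 and 54.1 FPKM. SB431542 libraries held 13.3, 15.3 and 13.6 FPKM, and 18.6, 21.3 and 19.99 FPKM with TGFb. The range with SB431542+TGFb overlapped that of vehicle. SR9011 libraries held 5.26, 5.48 and 4.08 FPKM, and 19.7, 16.8 and 19.0 FPKM with TGFb. CLK8 libraries held 9.59, 9.05 and 9.2 FPKM, and 36.7, 36.4 and 32.5 FPKM with TGFb. SR9011 alone gave the 3 lowest libraries and CLK8 alone the next 3. Ltbp2 was 2.49-fold higher with TGFb than with vehicle (log2 1.28, SE 0.0776, limma adjusted p = 2.64e-12). The vehicle mean was 4.26 times that with SR9011 (log2 -1.90, limma adjusted p = 1.11e-15), 2.27 times that with CLK8 (log2 -1.1, limma adjusted p = 1.24e-10) and 1.5 times that with SB431542 (log2 -0.55, limma adjusted p = 1.90e-05).

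Ltbp3 (ENSMUSG00000024940, chr19:5740904-5758532, plus strand, protein coding) had the highest mean of the 9 genes in each group but SB431542, where Tgfb3 was higher, and lay between 44.2 and 144 FPKM over the libraries. Its level is less certain than those of the other genes, because part of its reads may not be assigned uniquely. Its vehicle libraries held 65.4, 69.6 and 70.4 FPKM, and those with TGFb 109, 115 and 116 FPKM. SB431542 libraries held 46.9, 50.8 and 44.2 FPKM, and 61.6, 70.3 and 66.0 FPKM with TGFb. SB431542 alone was the lowest group. SR9011 libraries held 68.5, 64.4 and 59.5 FPKM, and 113, 115 and 116 FPKM with TGFb. CLK8 libraries held 64.0, 61.7 and 64.1 FPKM, and 133, 144 and 142 FPKM with TGFb. CLK8+TGFb was thus the highest group, above TGFb alone. Ltbp3 was 1.66-fold higher with TGFb than with vehicle (log2 0.72, SE 0.0558, limma adjusted p = 1.87e-10). The vehicle mean was 1.45 times that with SB431542 (log2 -0.53, limma adjusted p = 3.75e-07). Neither CLK8 (log2 -0.11, limma adjusted p = 0.109) nor SR9011 (log2 -0.095, limma adjusted p = 0.134) was called against vehicle. The SR9011 difference was called after rescaling to TPM (log2 -0.17, limma adjusted p = 0.00819) and without SR9011 replicate 1 (log2 -0.14, limma adjusted p = 0.0324).

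Summed over Ltbp1, Ltbp2 and Ltbp3, the class went from 108 ± 3.73 FPKM in vehicle to 226 ± 5.10 with TGFb (SD, n = 3), and stood at 99.6 ± 4.62 with SB431542+TGFb, 166 ± 3.72 with SR9011+TGFb and 223 ± 5.47 with CLK8+TGFb. Ltbp3 held the largest share throughout, 63.5% ± 0.327 in vehicle, 50.1% ± 0.792 with TGFb and 81.7% ± 1.26 with SR9011. Ltbp4, the fourth gene of the family, was not called with TGFb in DMSO: its mean was 32.6 ± 1.80 FPKM in vehicle and 34.8 ± 2.57 with TGFb (log2 0.09, SE 0.0669, limma adjusted p = 0.263). With SR9011 it was higher than vehicle, at 48.6 ± 3.19 FPKM (log2 0.56, limma adjusted p = 1.12e-07). Within CLK8 it rose with TGFb, from 32.2 ± 0.557 to 47.1 ± 2.03 FPKM (log2 0.53, limma adjusted p = 4.87e-07), and the interaction was called (0.44, limma adjusted p = 0.00389). Within SB431542 (log2 0.13, limma adjusted p = 0.356) and SR9011 (log2 0.14, limma adjusted p = 0.104) it was not called.

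The first comparison set TGFb against vehicle, where TGFb and time in culture cannot be told apart. Of the 9 genes, 5 were called higher and 3 lower, in a comparison where 54.9% of all genes tested were called, 20.5% higher and 34.4% lower. Those called higher were Tgfb1, Tgfbr2 and the 3 Ltbp genes, and those called lower were Tgfb2, Tgfb3 and Tgfbr3. The median log2 change was 0.32 over the 9 genes and -0.05 over all 11297. Of all called genes 37.3% were higher, against 50.7% after rescaling to TPM, and the 9 genes kept 5 and 3 under both scalings tried.

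The same comparison was made within each compound, where TGFb and a longer exposure to the compound cannot be told apart. All groups without TGFb serve in both this comparison and that of compound with vehicle. With SB431542, only the 3 Ltbp genes were called, all higher, where 4.36% of all genes were called, 2.01% higher and 2.35% lower. Their log2 changes were 0.47 for Ltbp1 (SE 0.0716, limma adjusted p = 0.000224), 0.48 for Ltbp2 (SE 0.0776, limma adjusted p = 0.000514) and 0.47 for Ltbp3 (SE 0.0558, limma adjusted p = 1.10e-05). Tgfbr2 missed the threshold (log2 -0.14, limma adjusted p = 0.0658), and passed it with the replicate number as a block (log2 -0.14, limma adjusted p = 0.0456) and without SB431542 replicate 1 (log2 -0.18, limma adjusted p = 0.029). Of all called genes 46.0% were higher, and 59.2% after rescaling to TPM. The number of genes called in this comparison was 493, and fell to 199 without SB431542 replicate 3, 244 without SB431542+TGFb replicate 1 and 243 without SB431542+TGFb replicate 2.

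With SR9011, 4 of the 9 genes were called higher with TGFb and 2 lower, where 45.3% of all genes were called, 14.3% higher and 31% lower. The 3 Ltbp genes were higher, with log2 changes of 1.69 for Ltbp1, 1.72 for Ltbp2 and 0.83 for Ltbp3 (limma adjusted p at most 2.03e-11). Tgfb3 was also higher (log2 0.47, limma adjusted p = 1.66e-05), the reverse of its fall without compound. Tgfbr3 fell by 0.63 (limma adjusted p = 3.50e-07) and Tgfb2 by 0.30 (limma adjusted p = 0.0009) on the log2 scale. Tgfb1, already at its highest, gave -0.06 (limma adjusted p = 0.377). Without SR9011 replicate 2 both Tgfbr1 (log2 0.23, limma adjusted p = 0.0308) and Tgfbr2 (log2 0.13, limma adjusted p = 0.0145) were called, against 0.13 (limma adjusted p = 0.262) and 0.08 (limma adjusted p = 0.123) with all libraries. Tgfbr2 was also called after quantile normalization (log2 0.13, limma adjusted p = 0.026). The share of called genes that were higher was 31.6%, and 44.0% after rescaling to TPM.

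With CLK8, 5 of the 9 genes were called higher with TGFb and 2 lower, where 51.9% of all genes were called, 17.3% higher and 34.6% lower. The Ltbp genes again led, with 1.48 for Ltbp1, 1.81 for Ltbp2 and 1.13 for Ltbp3 (limma adjusted p at most 4.68e-14). Tgfbr3 fell by 1.20 (limma adjusted p = 3.63e-12) and Tgfb2 by 0.56 (limma adjusted p = 2.82e-07) on the log2 scale, and Tgfbr2 was 0.18 higher (limma adjusted p = 0.00107). Tgfb3 gave -0.02 (limma adjusted p = 0.876). Tgfb1 was called by a small margin (log2 0.13, limma adjusted p = 0.0403) although its ranges overlapped. That call was lost with only the compared groups in the fit (limma adjusted p = 0.0889) and without CLK8 replicate 1 (0.112), CLK8 replicate 2 (0.192), CLK8+TGFb replicate 1 (0.0673) or CLK8+TGFb replicate 3 (0.181). Of all called genes 33.3% were higher, against 54.6% after rescaling to TPM.

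**Figure D3:**
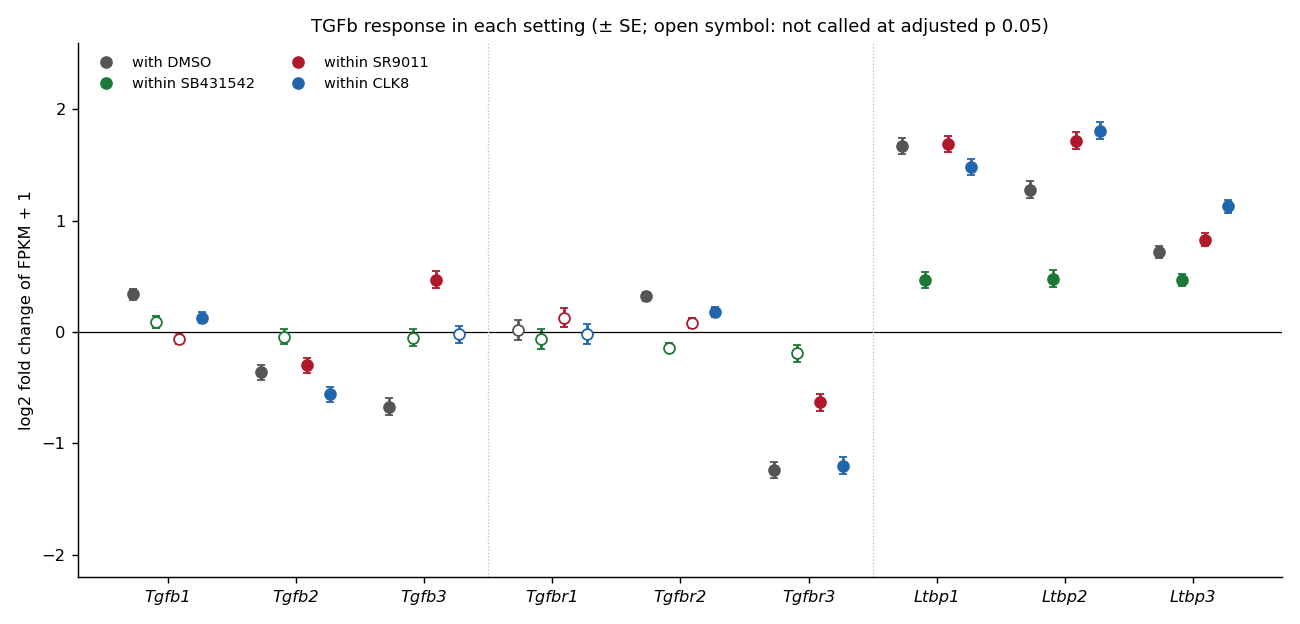
Log2 fold change of FPKM + 1 with TGFb (y axis, points with SE) for each of the 9 genes (x axis) in 4 settings: with DMSO and within SB431542, SR9011 or CLK8. Open symbols were not called at a limma adjusted p of 0.05. The Ltbp genes are above 0 in every setting, from 0.47 to 1.81, and Tgfb3 falls with DMSO (-0.67) but rises within SR9011 (0.47).

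The interaction term, the TGFb response with compound minus that without, tests whether these differences between groups are unequal. A changed response to TGFb and a longer exposure to the compound cannot be told apart in it. For SB431542 it was called for 8 of the 9 genes, all but Tgfbr1, where 34.3% of all genes were called, 21.5% with a positive and 12.8% with a negative term. Of the 8 genes 3 had a positive and 5 a negative term. The share of called genes with a positive term was 62.7%, and 50.9% after quantile normalization. Ltbp1 (-1.19, SE 0.101, limma adjusted p = 3.24e-09), Ltbp2 (-0.80, SE 0.110, limma adjusted p = 5.50e-06) and Tgfbr3 (1.05, SE 0.107, limma adjusted p = 5.67e-08) were the largest. For Ltbp3 the term was -0.25 (limma adjusted p = 0.0175) and was lost without SB431542 replicate 2 (limma adjusted p = 0.055) or SB431542+TGFb replicate 1 (0.0568). For Tgfb2 it was 0.31 (limma adjusted p = 0.014) and was lost after rescaling to TPM (0.104). For SR9011 the term was called for 5 of 9 genes, where 31.9% of all were called, 16.6% with a positive and 15.3% with a negative term. Tgfb3 stood out at 1.15 (SE 0.105, limma adjusted p = 3.86e-08), followed by Tgfbr3 at 0.61 (limma adjusted p = 0.000152), Ltbp2 at 0.44 (0.0036), Tgfb1 at -0.39 (0.00021) and Tgfbr2 at -0.23 (0.00528). Ltbp1 (0.03, limma adjusted p = 0.874) and Ltbp3 (0.12, limma adjusted p = 0.286) were not called. For CLK8 the term was called for 3 of 9 genes, where 7.97% of all were called, 4.58% positive and 3.39% negative: Tgfb3 at 0.66 (SE 0.105, limma adjusted p = 0.000238), Ltbp2 at 0.54 (SE 0.110, limma adjusted p = 0.00261) and Ltbp3 at 0.41 (SE 0.0789, limma adjusted p = 0.00155). Of all genes called for CLK8, 57.4% had a positive term, and 72.8% after rescaling to TPM. Tgfb1 missed the threshold for CLK8 (-0.21, limma adjusted p = 0.0723). It passed with the replicate block (-0.21, limma adjusted p = 0.049), without vehicle replicate 3 (-0.25, limma adjusted p = 0.049) and without CLK8 replicate 2 (-0.25, limma adjusted p = 0.0385).

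Each compound was also set against vehicle, a group that these comparisons share with each other and with that of TGFb. SB431542 left 3 genes called higher and 4 lower, where 16.9% of all genes were called, 11.9% higher and 5.05% lower. The 3 Ltbp genes and Tgfb1 were lower and Tgfb3, Tgfbr2 and Tgfbr3 higher. SR9011 gave 1 gene higher, Tgfb1, and 5 lower, where 69.1% of all genes were called, 40.7% higher and 28.3% lower. CLK8 gave 4 higher, namely Tgfb1 and the 3 receptor genes, and 3 lower, namely Tgfb2, Tgfb3 and Ltbp2, where 43.9% were called, 30.3% higher and 13.6% lower. The median change over the 9 genes was -0.06, -0.12 and -0.11 on the log2 scale for SB431542, SR9011 and CLK8, and 0.03, 0.06 and 0.06 over all genes. Side by side, the values with SR9011 and CLK8 were -1.67 and -0.95 for Tgfb2, -1.96 and -0.83 for Tgfb3, and -1.90 and -1.1 for Ltbp2. Differences between the compounds were not tested. Among all called genes the share that was higher was 70.1%, 59.0% and 69.1% for the 3 compounds, and moved to 52.1% for SB431542 and CLK8 after quantile normalization and to 49.3% for SR9011 after rescaling to TPM.

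With TGFb present, SB431542 gave 3 genes higher and 5 lower than TGFb alone, where 59.7% of all genes were called, 38.3% higher and 21.4% lower. Ltbp1 differed most, the mean with TGFb being 4.42 times that with SB431542+TGFb (log2 -2.07, SE 0.0716, limma adjusted p = 6.70e-17). Ltbp2 (log2 -1.35), Ltbp3 (-0.77), Tgfb1 (-0.44) and Tgfbr2 (-0.23) were also lower, and Tgfbr3 (1.36), Tgfb3 (0.85) and Tgfb2 (0.25) higher, with limma adjusted p of at most 0.0026. The TGFb libraries also serve in the comparison of TGFb with vehicle. Of all called genes 64.2% were higher, and 49.0% after quantile normalization.

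SR9011+TGFb against TGFb called 2 of the 9 genes higher and 5 lower, where 60.8% of all genes were called, 36.8% higher and 24% lower. Tgfb1 (log2 0.71) and Tgfbr3 (0.66) were higher, and Tgfb2 (-1.61), Ltbp2 (-1.45), Ltbp1 (-0.89), Tgfb3 (-0.81) and Tgfbr2 (-0.36) lower, with limma adjusted p of at most 1.86e-07. Ltbp3 gave 0.02 (limma adjusted p = 0.776). Tgfbr1 gave 0.19 (limma adjusted p = 0.0756), which was called with only the compared groups in the fit (limma adjusted p = 0.00643). CLK8+TGFb against TGFb called 3 genes higher and 3 lower, where 41.1% were called, 27.7% higher and 13.3% lower. Tgfb2 (log2 -1.15, limma adjusted p = 9.71e-12), Ltbp2 (-0.56, limma adjusted p = 4.50e-06) and Ltbp1 (-0.32, limma adjusted p = 0.000941) were lower, and Tgfbr3 (0.47, limma adjusted p = 3.11e-05), Ltbp3 (0.30, limma adjusted p = 0.000185) and Tgfbr1 (0.26, limma adjusted p = 0.0215) higher. The Tgfbr1 call was lost after quantile normalization (limma adjusted p = 0.0644) and without TGFb replicate 3 (0.0919) or CLK8+TGFb replicate 1 (0.0802). Tgfb3 missed the threshold (log2 -0.18, limma adjusted p = 0.0607) and passed it after quantile normalization (log2 -0.22, limma adjusted p = 0.0269) or with only the compared groups in the fit (limma adjusted p = 0.0149). The share of called genes that were higher was 60.5% for SR9011+TGFb and 67.5% for CLK8+TGFb, against 45.7% after rescaling to TPM and 49.6% after quantile normalization.

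**Figure D4:**
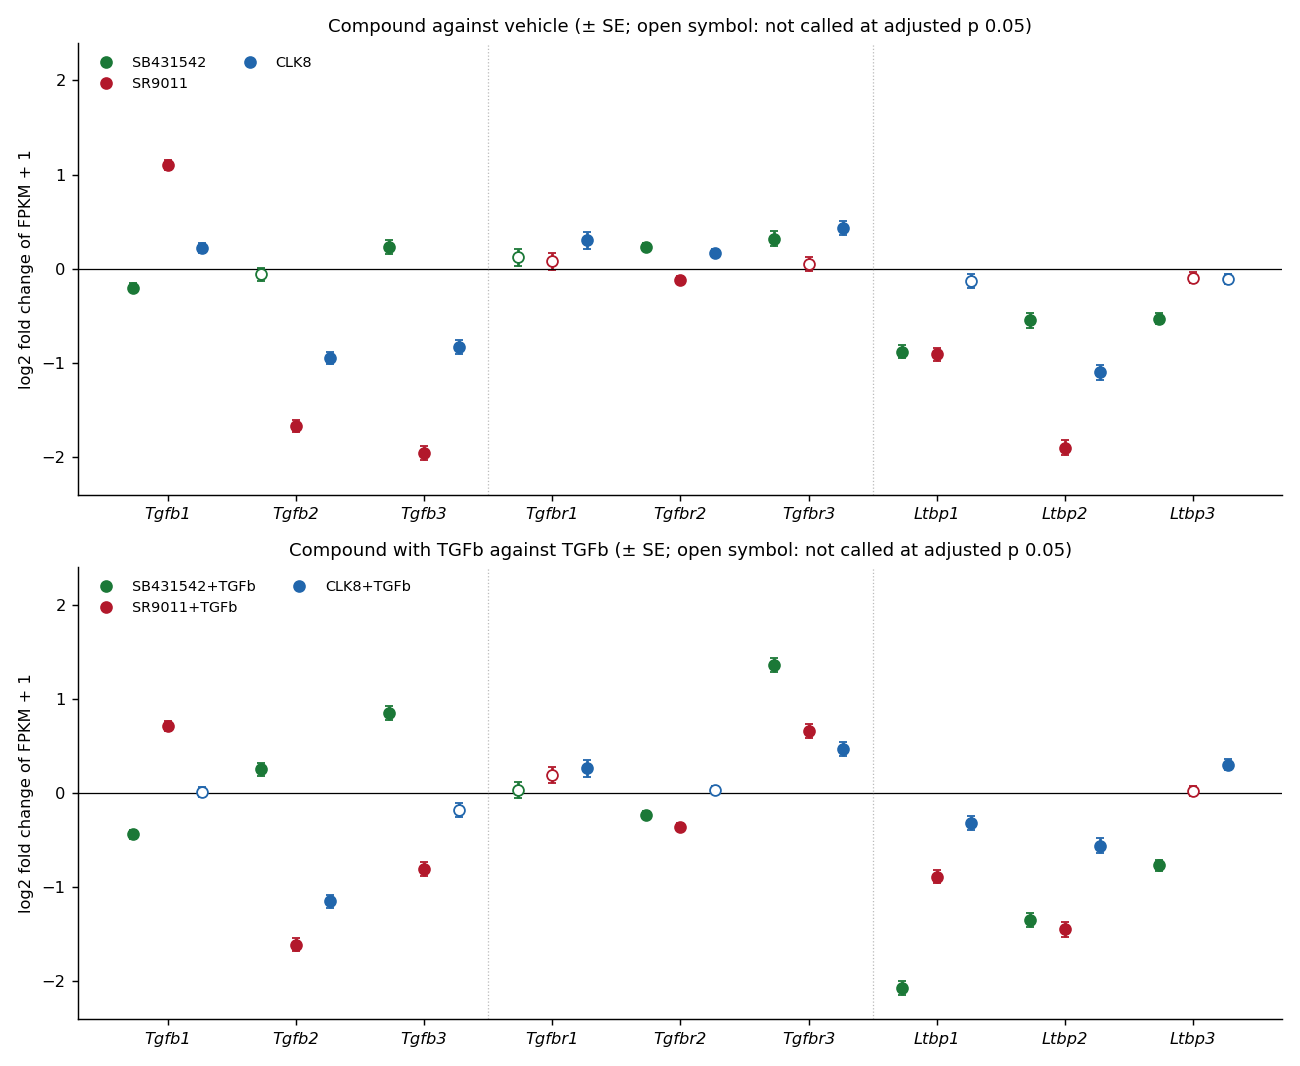
Log2 fold change of FPKM + 1 (y axis, points with SE) of each of the 9 genes (x axis) with SB431542, SR9011 or CLK8, against vehicle in the upper panel and, with TGFb present, against TGFb in the lower panel. Open symbols were not called at a limma adjusted p of 0.05. Tgfb2 and Ltbp2 lie below 0 with SR9011 and CLK8 in both panels, and Ltbp1 with SB431542 reaches -2.07 in the lower panel.

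The proteins that store, release and activate latent TGFb were examined next, as a list of 24 genes of which 21 were tested (Lrrc32, Nrros and Itgb6 were below the filter). Like the lists that follow, it was chosen with earlier results of these data known. With TGFb, 13 were higher and 5 lower, with a median log2 change of 0.36, where 20.5% of all genes were higher and 34.4% lower. Mmp2, a gelatinase that can release TGFb from its latent complex, rose most (log2 3.09, limma adjusted p = 3.66e-22), followed by the integrin gene Itgb5 (1.32) and the fibrillin gene Fbn1 (1.19), whose product anchors the LTBPs. Tgm2, the transglutaminase that crosslinks LTBP1 to the matrix, fell most (-1.66), followed by the plasminogen activator gene Plat (-1.18) and the protease gene Adamts1 (-0.62). With SR9011 against vehicle 4 were higher and 12 lower, with a median of -0.33. The 16 called of 21 are near the 69.1% called over all genes, 40.7% higher and 28.3% lower. Thbs1, the gene of the TGFb-activating protein thrombospondin 1, fell by 2.42 on the log2 scale (limma adjusted p = 7.30e-18) and Tgm2 by 1.75, while the membrane protease gene Mmp14 was 0.94 higher. CLK8 gave 4 higher and 7 lower (median -0.07), where 43.9% of all genes were called. SB431542 gave 5 and 6 (median -0.12), where 16.9% were called. For SB431542 the fall of Mmp2 was the largest (-1.1, limma adjusted p = 1.16e-11).

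Other ligands of the activin arm and soluble binders made a list of 16 genes, of which 14 were found in the table used here and 9 were tested. With TGFb, 6 of these were higher and 2 lower (median log2 0.59), beside 20.5% higher and 34.4% lower over all genes. The follistatin-like genes Fstl3 (1.78) and Fstl1 (1.42) and the activin subunit gene Inhba (1.03) rose, and Dcn, the gene of the TGFb-binding proteoglycan decorin, fell by 2.01 (limma adjusted p = 1.06e-13). With SR9011 0 were higher and 5 lower against vehicle (69.1% of all genes called, 28.3% lower), Fmod, the gene of fibromodulin, leading at -2.07 (limma adjusted p = 1.33e-10). CLK8 also gave 0 higher and 5 lower (43.9% of all genes called, 13.6% lower), with Fmod at -1.61 (limma adjusted p = 2.64e-08). Of 15 other receptors of the superfamily, 10 were tested. The 7 called with TGFb compare with 54.9% called over all genes. With TGFb 4 were higher, led by the TGFb co-receptor gene Cd109 (0.68), and 3 lower, led by the pseudoreceptor gene Bambi (-1.35, limma adjusted p = 1.12e-12). Bambi was also lower with SR9011 (-1.28, limma adjusted p = 1.33e-12).

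All 18 genes of the receptor-proximal signalling list were tested, and 12 were higher and 3 lower with TGFb (median log2 0.18), beside 20.5% and 34.4% of all genes. The feedback inhibitors Pmepa1 (3.54, limma adjusted p = 3.66e-22), Ldlrad4 (2.26) and Skil (1.71) rose most, and Smad6 (-0.85), Smad3 (-0.33) and Dab2 (-0.27) fell. Pmepa1 averaged 71.6 ± 2.78 FPKM with TGFb (SD, n = 3), 98.0 ± 2.80 with SR9011+TGFb, 105 ± 0.515 with CLK8+TGFb and 3.92 ± 0.361 with SB431542+TGFb. Ccn2, which encodes connective tissue growth factor, averaged 174 ± 7.77 FPKM with TGFb, 169 ± 29.5 with SR9011+TGFb, 69.3 ± 14.8 with CLK8+TGFb and 33.5 ± 6.04 with SB431542+TGFb. With CLK8 against vehicle, where 30.3% of all genes were higher and 13.6% lower, 4 of the 18 signalling genes were higher and 8 lower, the inhibitory Smad6 (-1.15, limma adjusted p = 3.21e-11) and Smad7 (-1.1, limma adjusted p = 1.73e-11) most. SR9011 gave 7 higher and 5 lower, a called share near the 69.1% over all genes, with the SMAD co-repressor gene Tgif1 the highest (0.94, limma adjusted p = 5.32e-13).

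The genes whose pattern over the 8 group means of log2(FPKM + 1) came closest to each of the 9 were named by Pearson correlation, as a description without a test. Tgfb1 was nearest to Pomt2 (r = 0.992) and Plk3 (0.991), Tgfb2 to Arrdc4 (0.999) and Ecscr (0.990), and Tgfb3 to Hist1h4i (0.996) and Smtnl2 (0.992). Among the receptors, Tgfbr3 was nearest to Aldh3b1 (0.994) and Gstm1 (0.994), Tgfbr2 to Gpcpd1 (0.967) and Cdk7 (0.960), and Tgfbr1 to Ddx5 (0.979) and Mpp7 (0.963). Ltbp1 was nearest to the BMP and activin receptor gene Acvr1 (0.989) and to Golga3 (0.986), Ltbp2 to Ak1 (0.992) and Gadd45g (0.987), and Ltbp3 to Fam210b (0.994). Within the 9, Ltbp1 correlated with Ltbp3 at 0.92, with Ltbp2 at 0.83 and with Tgfbr3 at -0.91. Genes without a symbol and those with Gm, Rik, clone-type or hyphenated symbols were left out of this search. With 8 points and up to 11297 genes to choose from, high values are found for any gene.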

How the data were processed

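Gene-level RNA-seq values of 24 EMS404 libraries were used. The authors deposited 1 table of FPKM values with 2 decimals. Per the submitters' processing notes the tools include HISAT2 2.0.4, Bowtie2 2.2.5, RSEM and DESeq2 with the build mm10, with no settings. The sources used here do not state whether the libraries keep strand. Per the labels' protocols 1 of 2 RNA kits was used depending on yield and samples of low RNA integrity were discarded. Which library had which kit is not given.

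Of 16620 lines, 16 were left out because 8 identifiers stood on 2 lines each, leaving 16604 genes. The 11297 genes with at least 1 FPKM in at least 3 libraries were tested as log2(FPKM + 1) with limma 3.58.1 (R 4.3.3; trend and robust, all 8 groups in 1 fit, no covariate), with Benjamini-Hochberg adjustment within each of 13 comparisons. Alternatives were a pseudocount of 0.1, no filter, rescaling to TPM, quantile normalization, the replicate number as a block, only the compared groups in the fit, and leaving out each library. Read totals are unknown, so no counting intervals are given. The fit was tested on simulated data for TGFb against vehicle. It recovered 22 of 50 changes of log2 0.25, 48 of 50 of 0.5 and 50 of 50 of 1, and called 8 unchanged genes. Small changes can therefore be missed. Same-numbered libraries deviated together, with all 3 correlations over 0.1, for SB431542 and SB431542+TGFb (0.415, 0.208 and 0.117) and in no other pair of groups compared.

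Gene positions are from GENCODE M21 (GRCm38), promoters from RefSeq (GRCm38.p6). The 9 genes and the lists were chosen with earlier results of these data known. From each list up to 3 genes called in each direction, those with the largest change, were eligible to be named, and the text names part of them, mostly for the comparisons with vehicle. Up to 2 nearest patterns per gene were named by correlation. Some items are not reported here.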

Additional observations from a re-analysis of the deposited data

Results flagged for a closer look

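The TGFb response of these genes differed between cells with and without a compound, by limma's interaction term (response with compound minus response without, log2, adjusted p under 0.05), in 16 cases. These are given as values, in which TGFb and a longer exposure to the compound cannot be told apart.

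With SB431542 the term was negative for Ltbp1 (-1.19), Ltbp2 (-0.80), Tgfbr2 (-0.46), Ltbp3 (-0.25) and Tgfb1 (-0.24). It was positive for Tgfbr3 (1.05), Tgfb3 (0.62) and Tgfb2 (0.31). Without compound, the first 5 genes were higher with TGFb than in vehicle and the other 3 were lower.

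With SR9011 the term was positive for Tgfb3 (1.15), Tgfbr3 (0.61) and Ltbp2 (0.44), and negative for Tgfb1 (-0.39) and Tgfbr2 (-0.23). Tgfb3 fell with TGFb in the absence of compound and rose within SR9011.

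With CLK8 the term was positive for Tgfb3 (0.66), Ltbp2 (0.54) and Ltbp3 (0.41). The Tgfb3 response was -0.67 without compound and -0.02 within CLK8.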

How the results depend on the processing

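Of 117 values (9 genes in 13 comparisons), 116 kept direction and side of the threshold with a pseudocount of 0.1, 116 with no filter, 110 after rescaling to TPM, 105 after quantile normalization, 113 with only the compared groups and 115 with the replicate block. The block was fitted over all 24 libraries, although same-numbered libraries deviated together only for SB431542 and SB431542+TGFb among the groups compared. It added the call of Tgfbr2 in SB431542+TGFb against SB431542 (limma adjusted p = 0.0456). It also added that of Tgfb1 in the CLK8 interaction (limma adjusted p = 0.049), and changed no other call of the 9 genes. Every value that changed sign was uncalled. After rescaling to TPM, Tgfbr3 was -0.02 for SR9011 against vehicle, Tgfbr1 -0.01 for SB431542+TGFb against TGFb, Ltbp3 -0.07 for SR9011+TGFb against TGFb, and Tgfb3 0.08 and Tgfbr1 0.07 for CLK8+TGFb against CLK8. After quantile normalization, Tgfbr1 was 0.00 and Tgfbr3 -0.04 for SR9011 against vehicle, Tgfbr1 -0.06 for SB431542+TGFb against TGFb, Tgfb1 -0.04 and Tgfbr2 -0.01 for CLK8+TGFb against TGFb, and Tgfb3 and Tgfbr1 0.04 each for CLK8+TGFb against CLK8. With a pseudocount of 0.1 the SR9011 interaction of Tgfb2 was -0.01.

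With each library left out in turn, signs turned within these ranges: Tgfbr1 0.00 to 0.06 for TGFb against vehicle, -0.03 to 0.25 for SR9011 against vehicle, -0.01 to 0.07 for SB431542+TGFb against TGFb, -0.04 to 0.23 for SR9011+TGFb against SR9011, -0.06 to 0.01 for CLK8+TGFb against CLK8 and -0.06 to 0.21 for the SR9011 interaction. Tgfbr3 ran from -0.07 to 0.14 for SR9011 against vehicle, Ltbp3 from -0.01 to 0.04 for SR9011+TGFb against TGFb, Tgfb1 from -0.03 to 0.04 for CLK8+TGFb against TGFb and Tgfb3 from -0.05 to 0.02 for CLK8+TGFb against CLK8. The SR9011 interaction ran from -0.02 to 0.14 for Tgfb2 and from -0.02 to 0.09 for Ltbp1. Genes called for SB431542+TGFb against SB431542 ran from 199 to 513, against 493 with all libraries. The cause was not tested. Depth is unknown, and 3 libraries a group limit small changes.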
